A study of Mus musculus with 9 samples.

Results

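Tubulin isotypes are the products of the separate genes that encode α-tubulin and β-tubulin, the paired subunits of the microtubule. The 10 genes described here, *Tuba1a*, *Tuba1b*, *Tuba4a*, *Tubb2a*, *Tubb2b*, *Tubb3*, *Tubb4a*, *Tubb4b*, *Tubb5* and *Tubb6*, were chosen by name as 3 α-tubulin and 7 β-tubulin genes, and were 10 of 55450 genes counted and 10 of 19371 genes tested. RNA was sequenced from Rathke's pouch, the epithelial fold that forms the anterior and intermediate lobes of the pituitary gland, in 7 embryos at embryonic day 13.5, and from the adult pituitary gland at postnatal week 8, with the posterior lobe removed, in 2 mice. Each library came from 1 animal on a mixed 129Sv/c57BL6J background. The embryos carried a *Sox2* allele with an Egfp insertion (*Sox2* Egfp/+), no such allele was stated for the adults, and both stages held males and females, with the sex of each library not given. Genotype, tissue dissected and age therefore cannot be told apart in this comparison, and 2 adults give a limited estimate of the adult spread.

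A microtubule is built from heterodimers of α-tubulin and β-tubulin, which fold on a chaperonin and are joined by dedicated cofactors. The isotypes share most of their protein and differ mainly in an acidic carboxy-terminal tail, on which enzymes add or remove tyrosine, glutamate and glycine and to which motors and other microtubule-associated proteins bind. Dividing cells need microtubules for the spindle, neurons for axons and dendrites, and endocrine cells for the movement of secretory granules. Cells also adjust tubulin mRNA by degrading it during translation when free tubulin is in excess.

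The 7 embryo libraries held 16738863, 28537311, 24816013, 18825731, 24687556, 22393725 and 25755469 read pairs counted on genes, and the adult libraries 36421545 and 31191117. Between 59.7% (embryo 1) and 80.0% (embryo 7) of embryo read pairs were counted on a gene, against 84.0% and 83.7% in the adults. Pairs aligned in several places, which are not counted on any gene, made up 14.1% to 26.1% in embryos and 7.16% and 7.52% in adults. The smallest count of any of the 10 genes was 404 pairs, for *Tubb6* in embryo 4, with a counting error of 4.98%. Levels are given as CPM, the count of a gene relative to its library's total with that total scaled by the trimmed mean of M-values (TMM), and, for comparison between genes, per kilobase of the longest protein-coding transcript (RPKM).

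Marker genes of each labelled tissue were present. *Hesx1* and *Lhx3*, transcription factors of Rathke's pouch, had mean levels of 24.8 and 224 CPM in embryos and 0.451 and 112 CPM in adults. The 7 pituitary hormone genes summed to 1313 ± 353 CPM in embryos and 156186 ± 5356 CPM in adults, led by *Cga* (865 CPM) and *Gh* (58628 CPM). Markers of other cells were present at both stages. Blood markers summed to 178374 and 223596 CPM in embryos 1 and 4, between 6372 and 19819 CPM in the other 5 embryos, and 763 and 1976 CPM in the adults, with *Hbb-y* (40087 CPM) the most abundant in embryos and *Hbb-bs* (865 CPM) in adults. Mesenchymal markers summed to 1698 ± 604 and 657 ± 182 CPM, led by *Col3a1* in embryos (683 CPM) and *Col1a2* in adults (278 CPM). In bulk tissue, fewer cells of a type and less RNA per cell cannot be told apart.

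The 10 tubulin genes together took up 0.499 ± 0.0962% of all counted pairs in embryos (SD, n = 7, range 0.388% to 0.654%). The adult libraries gave 0.178% (95% Wilson interval 0.177% to 0.179%) and 0.144% (0.142% to 0.145%), where the intervals cover counting error only. All 7 embryos therefore lay above both adults. Per length, the summed level was 2460 ± 528 RPKM in embryos and 717 ± 105 RPKM in adults, 3.43-fold apart, and the α-tubulin and β-tubulin sums were 3.30-fold and 3.53-fold higher in embryos. The α-tubulin genes made up 41.7 ± 3.83% of the length-normalised total in embryos and 42.0% and 45.3% in the adults, and the groups overlapped. They did not overlap with the median length of the annotated protein-coding transcripts (31.4% to 40.3% in embryos, 41.2% and 44.8% in adults) or when corrected for length and GC content (37.4% to 43.3%, and 43.3% and 46.2%). This balance depends on how length is counted: over positions unique to each gene, α-tubulin made up 69.2% in embryos and 67.3% in adults.

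Of the 10 genes, 3 were called higher in embryos (*Tuba1b*, *Tubb2b* and *Tubb5*) at an adjusted p below 0.05 and a change above 4-fold, a rule that 11.3% of all tested genes met in that direction and 14.6% in the direction of the adults. Without the fold threshold, 4 of 10 passed as higher in embryos (*Tuba1a* joined them), against 24.0% of all tested genes, and 27.4% of genes passed as higher in adults. None of the 10 passed as higher in adults by edgeR with the settings used throughout or by DESeq2, while under other settings *Tuba4a* and *Tubb4a* passed in that direction, as given below. For 5 genes (*Tuba1a*, *Tuba1b*, *Tubb2b*, *Tubb4b* and *Tubb5*) all 7 embryos lay above both adults, which was so for 26.2% of tested genes, and for none of the 10 did all embryos lie below both adults, which was so for 32.9%. The median log2 fold change of embryo over adult was 0.59 over the 10 genes and -0.04 over all genes tested. Scaling by library size alone shifted the median of all genes by -0.22, with 7 of the 10 genes above 0 in place of 8 and a median of 0.35 over the 10. Corrected for transcript length and GC content, 4 of the 10 genes were above 0, and the median was -0.24 over the 10 and 0.05 over all genes, so the direction of the median turned.

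**Figure D1:**
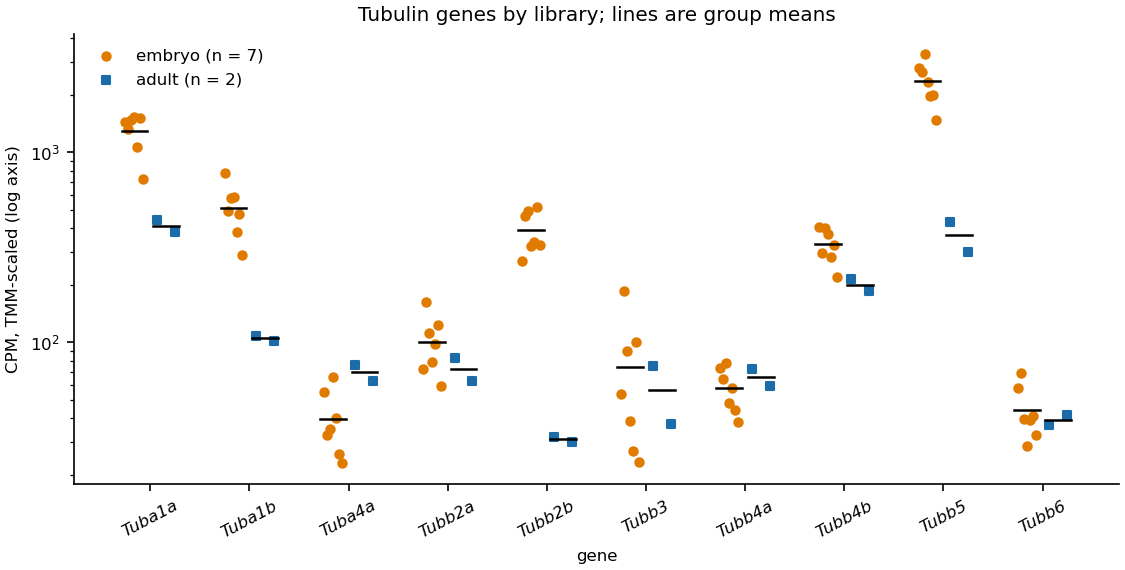
Level of each tubulin gene in CPM, TMM-scaled, on a log axis, with 1 point per library (7 embryos, 2 adults) and lines at the group means. For *Tuba1a*, *Tuba1b*, *Tubb2b*, *Tubb4b* and *Tubb5* every embryo lies above both adults, while the groups overlap for the other 5 genes.

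*Tuba1a* (ENSMUSG00000072235), the main α-tubulin of developing neurons and widely expressed elsewhere, had a lowest, median and highest embryo level of 722, 1455 and 1541 CPM, and adult levels of 439 and 380 CPM. Embryo 7 was the lowest of the embryos, and the groups did not overlap. The mean was 3.18-fold higher in embryos (log2 fold change 1.67 ± 0.36 SE, adjusted p = 0.00156), and the log2 fold change was 0.95 with an adjusted p of 0.0114 when corrected for transcript length and GC content. *Tuba1b* (ENSMUSG00000023004), a broadly expressed α-tubulin that is abundant in proliferating cells, ran from 289 over a median of 491 to 781 CPM in embryos, and was 108 and 102 CPM in the adults. Embryo 1 was highest and embryo 7 again lowest, with all embryos above both adults. Its difference was 4.87-fold (log2 fold change 2.28 ± 0.39 SE, adjusted p = 0.000284). Corrected for transcript length and GC content, it was 1.51 with an adjusted p of 0.00163 (range over the alternatives 1.24e-09 to 0.00976), which is no longer above 4-fold, and 2 of the 10 genes were then called, against 8.41% of all tested genes in that direction.

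The end of the coding sequence of *Tuba4a* is shown because its last codon sets that the protein is made without a terminal tyrosine, the residue removed and restored in the tyrosination cycle. The sequence is from the GENCODE M21 transcript on GRCm38, from exon 4 of 4 on the minus strand and within the coding sequence, at chr1:75215622-75215684. Capitals mark the last codon before the stop codon, a glutamate codon.
Tuba4a: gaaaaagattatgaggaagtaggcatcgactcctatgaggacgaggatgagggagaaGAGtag

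*Tuba4a* (ENSMUSG00000026202), the α-tubulin made without the terminal tyrosine, had a lowest, median and highest embryo level of 23.1, 35.0 and 65.6 CPM, and adult levels of 76.3 and 62.8 CPM. Embryos 4 and 1 were the highest embryos, embryo 4 alone reached the adult range, and the other 6 lay below both adults. The log2 fold change was -0.82 ± 0.34 (SE, adjusted p = 0.0592), which did not pass. Embryos 4 and 1 were also the libraries with the most blood RNA by all 8 blood markers summed, given above, and the gene most like *Tuba4a* over the 7 embryos among 10268 compared was *Slc4a1*, the anion exchanger of red blood cells (Pearson r = 0.97, as a description), followed by *Acbd4* (0.97) and *Pim1* (0.96). Without embryos 1 and 4, the log2 fold change of *Tuba4a* was -1.13 with an adjusted p of 0.00284. The adjusted p also passed without embryo 1 (0.0415), without embryo 4 (0.0221), with library size alone (0.0102) and with no filter on low counts (0.0423), in a range over all alternatives of 0.00284 to 0.283. Among the embryos other than 1 and 4, embryo 5 had the highest *Tuba4a*. Its blood sum (16322 CPM) was below those of embryos 2, 3 and 6, while embryo 7 was lowest by both. Platelet markers summed to 103, 92.6 and 74.7 CPM in embryos 4, 5 and 1, and 27.7 to 58.1 CPM in the others. Embryo 3 was lowest by platelet markers but above embryos 2, 6 and 7 for *Tuba4a*. The part of blood cells or platelets in the level of *Tuba4a* was not tested.

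**Figure D2:**
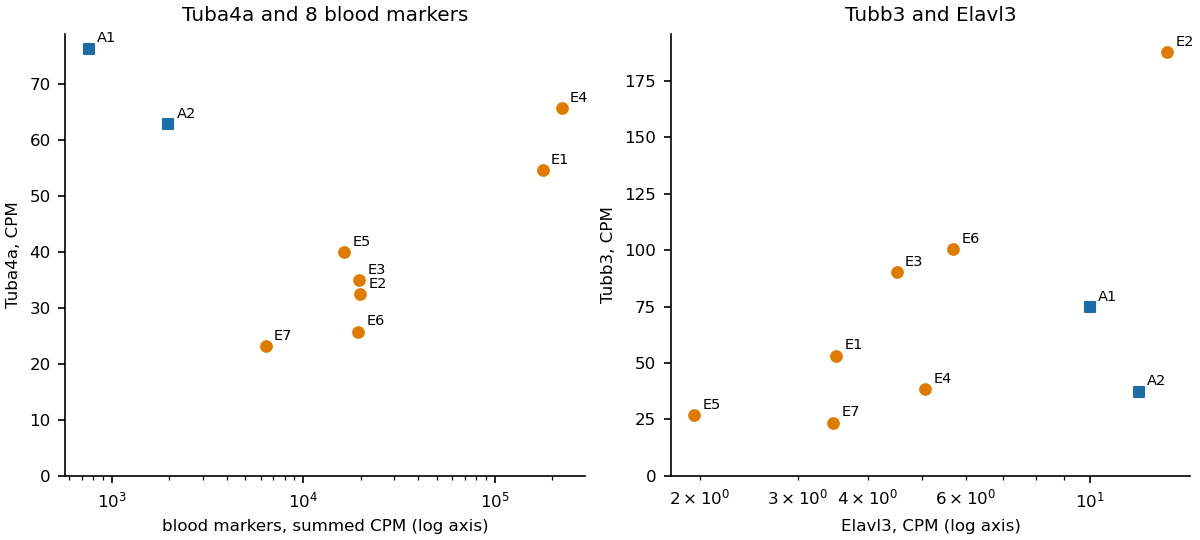
Left, *Tuba4a* in CPM against the summed CPM of 8 blood markers (log axis); right, *Tubb3* in CPM against the neuronal marker *Elavl3* in CPM (log axis), with 1 point per library (E, embryo; A, adult). Embryos 4 and 1 are highest for *Tuba4a* and blood among the embryos, and embryo 2 is highest for *Tubb3* and *Elavl3*, a marker singled out after its values were seen, but lowest of the embryos by the sum of 12 neuronal markers.

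As a share of the length-normalised counts of the α-tubulin genes, *Tuba1a* made up 70.3 ± 3.52% in embryos (SD, n = 7, range 63.3% to 75.0%) and 73.2% and 72.4% in the adults. *Tuba1a* was the most abundant of the 3 in every library, and the groups overlapped at this length. Over unique positions they did not overlap (56.7% to 69.3% in embryos, 72.4% and 71.0% in adults), and with the median length the embryo mean was the higher (68.2% against 61.4%). *Tuba1b* made up 28.3 ± 3.38% in embryos (24.2% to 35.2%) and 19.4 ± 0.941% in adults (SD, n = 2), without overlap. *Tuba4a* rounded off the family with 1.36 ± 0.389% in embryos (0.802% to 1.91%) and 8.08% and 7.60% in adults, also without overlap. Shares are descriptions with no test, and each depends on the length given to the gene: with the median length of all annotated protein-coding transcripts, which for *Tuba4a* is 845 bases in place of 2840 because short annotated fragments enter it, its share was 4.41% in embryos and 22.2% in adults. With its whole count divided by the number of unique positions, it was 0.361% and 2.25%. The adult share was the higher under each of these lengths.

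*Tuba1a* and *Tuba1b* are 99.6% identical in protein (2 residues differ) and 98.3% in coding sequence, and only 29.6% and 21.7% of their 75-base windows occur in no other annotated gene. Pairs that align equally well in more than 1 of these genes are not counted, and an annotated read-through gene on the same strand, *Gm49450*, covers 473 and 426 exon bases of them and was counted at 0 in all 9 libraries. Their counts are therefore a lower bound on their RNA. Within libraries the ratio of *Tuba1a* to *Tuba1b*, per length, was 2.53 ± 0.39 in embryos (1.80 to 3.10) and 3.92 and 3.62 in adults, so every embryo had relatively more *Tuba1b* than either adult. Together they made up 98.6 ± 0.389% of α-tubulin in embryos and 91.9% and 92.4% in adults. The sequence of the α-tubulin primers that the study used for reverse-transcription PCR in other mice, not analysed here, shows the same limit for that method. The capitals mark primer bases, all of which match the transcripts of *Tuba1a* (product at chr15:98951477-98951576, GRCm38, in exon 2 on the minus strand), *Tuba1b* (chr15:98932981-98933080) and *Tuba1c* (chr15:99034209-99034308), each with 0 mismatches and a product of 100 bases, while *Tuba4a* has 3 and 4 mismatches. Both primers also match a transcript of *Gm49450* and of the processed pseudogene *Gm6682* with no mismatch.
Forward primer: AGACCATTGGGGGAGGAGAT
Reverse primer: GTGGGTTCCAGGTCTACGAA

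**Figure D3:**
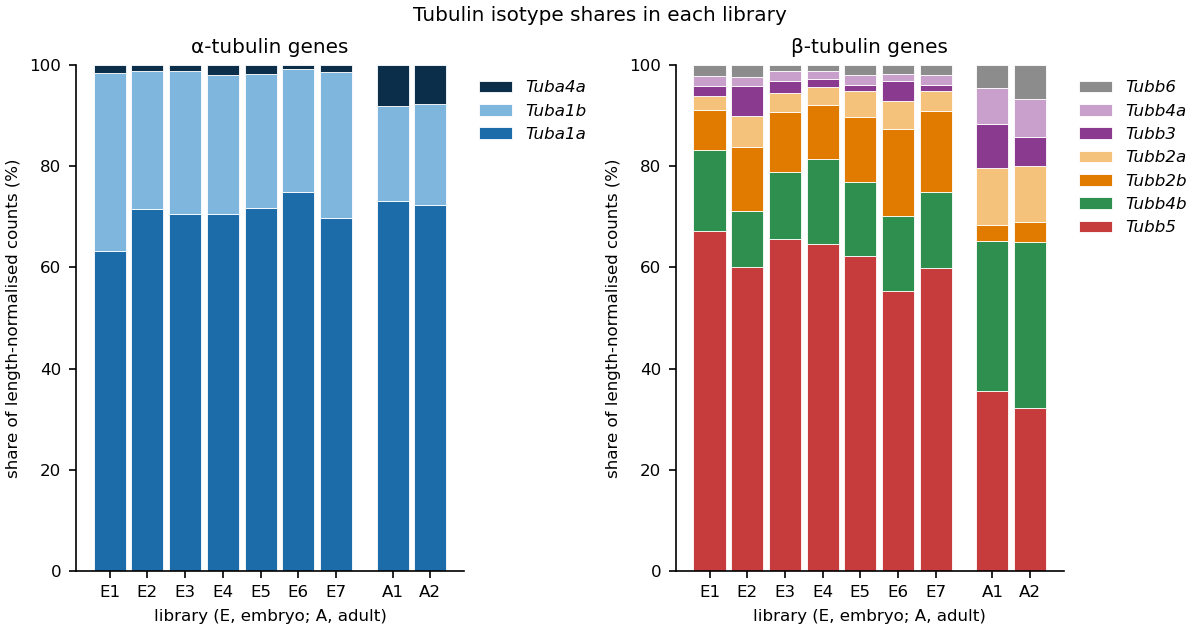
Share of each gene in the length-normalised counts of its family (%), stacked to 100% for each library (E, embryo; A, adult), for 3 α-tubulin genes (left) and 7 β-tubulin genes (right). *Tuba1a* leads the α-tubulin genes in every library, and *Tubb5* makes up 55.3% to 67.1% of β-tubulin in embryos and 35.6% and 32.1% in adults.

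For the β-tubulin genes, the ends of the coding sequences are shown for the 4 genes that carried most of the difference in shares, or whose tail is set apart, because these tails are the part in which β-tubulin isotypes differ most. They are from GENCODE M21 transcripts on GRCm38, all in exon 4 of 4, at chr17:35834982-35835044 (minus strand) for *Tubb5*, chr13:34127471-34127533 (minus strand) for *Tubb2b*, chr2:25222308-25222370 (minus strand) for *Tubb4b* and chr8:123421620-123421682 (plus strand) for *Tubb3*. Capitals mark the last codon before the stop codon, an alanine codon in *Tubb5*, *Tubb2b* and *Tubb4b* and a lysine codon in *Tubb3*.
Tubb5: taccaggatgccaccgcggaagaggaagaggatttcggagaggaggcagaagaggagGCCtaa
Tubb2b: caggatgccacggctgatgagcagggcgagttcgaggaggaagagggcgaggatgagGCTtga
Tubb4b: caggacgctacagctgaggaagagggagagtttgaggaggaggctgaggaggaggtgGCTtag
Tubb3: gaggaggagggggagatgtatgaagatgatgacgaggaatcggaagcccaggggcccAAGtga

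*Tubb5* (ENSMUSG00000001525), the β-tubulin of most dividing cells, had a lowest, median and highest embryo level of 1474, 2357 and 3289 CPM, and adult levels of 433 and 299 CPM. Embryo 3 was highest and embryo 7 lowest, and the lowest embryo stood well above both adults. The difference was 6.47-fold (log2 fold change 2.69 ± 0.41 SE, adjusted p = 0.000123). By mean CPM it ranked 40 among all tested genes in embryos and 176 in adults, and its share of β-tubulin was 62.2 ± 4.06% in embryos and 35.6% and 32.1% in adults. *Tubb2b* (ENSMUSG00000045136), a β-tubulin known for its role in migrating and differentiating neurons, ran from 268 over a median of 338 to 513 CPM in embryos, and was 31.9 and 29.8 CPM in adults. Embryos 6, 3 and 2 were the highest, embryo 1 the lowest, and the groups stood far apart. Its difference, 12.6-fold (log2 fold change 3.65 ± 0.38 SE, adjusted p = 5.51e-06), was the largest of the 10, and its share of β-tubulin was 12.7 ± 3.15% in embryos (7.85% to 17.2%) and 3.19% and 3.89% in adults. The genes most like it over the 7 embryos were *Snrnp35* (Pearson r = 0.99), the chaperonin subunit *Cct5* (0.99) and the ribonucleotide reductase subunit *Rrm2* (0.99), given as a description.

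*Tubb2a* (ENSMUSG00000058672), its neighbour in sequence and on chromosome 13, had a lowest, median and highest embryo level of 58.7, 97.6 and 163 CPM, and adult levels of 83.0 and 62.4 CPM. Embryo 2 was highest, and the groups overlapped. The log2 fold change was 0.47 ± 0.35 (SE, adjusted p = 0.276), and -0.41 when corrected for length and GC content. The proteins of *Tubb2a* and *Tubb2b* are 99.6% identical (2 residues differ), the coding sequences 96.5%, and 56.8% and 67.8% of their 75-base windows are unique. Per length, the ratio of *Tubb2b* to *Tubb2a* was 2.97 ± 0.62 in embryos (2.10 to 4.09) and 0.284 and 0.353 in adults, so the more abundant gene of this closely related pair differed between the stages in all 9 libraries. Their summed share of β-tubulin was 17.1 ± 3.98% in embryos (10.7% to 22.8%) and 14.4% and 14.9% in adults, with overlap, while *Tubb2a* alone made up 4.39 ± 1.18% in embryos and 11.1 ± 0.158% in adults.

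*Tubb4b* (ENSMUSG00000036752), a broadly expressed β-tubulin that also builds cilia, had a lowest, median and highest embryo level of 222, 324 and 403 CPM, and adult levels of 216 and 185 CPM. All 7 embryos lay above both adults, but embryo 7 by little. The log2 fold change of 0.71 ± 0.29 (SE) did not pass (adjusted p = 0.0535). It passed by DESeq2 (0.0365), with unstranded counts (0.0494), and without embryo 1 (0.0452), embryo 6 (0.0440) or embryo 7 (0.0181), and it turned to -0.17 when corrected for length and GC content, in a range of adjusted p over all alternatives of 0.0181 to 0.504. As a share of β-tubulin it went the other way: 14.5 ± 1.90% in embryos (11.1% to 16.8%) and 29.5% and 33.0% in adults. *Tubb4a* (ENSMUSG00000062591), known from neurons and oligodendrocytes, had a lowest, median and highest embryo level of 38.0, 57.5 and 77.7 CPM, and adult levels of 72.9 and 59.2 CPM, which overlapped. The log2 fold change was -0.20 ± 0.29 (SE, adjusted p = 0.583), and it was -0.69 with an adjusted p of 0.0125 when corrected for length and GC content (range over the alternatives 0.0125 to 0.923). Its share of β-tubulin was 1.81 ± 0.259% in embryos and 7.14% and 7.56% in adults. The ratio of *Tubb4b* to *Tubb4a*, whose proteins are 98.4% identical, was 8.19 ± 1.70 in embryos and 4.14 and 4.37 in adults, with every embryo above both adults.

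*Tubb3* (ENSMUSG00000062380), the β-tubulin used as a marker of neurons, varied more between embryos than any other of the 10 genes: the lowest, median and highest were 23.6, 53.2 and 188 CPM, a 7.95-fold range, and the adults had 74.7 and 37.3 CPM. Embryo 2 was highest, followed by embryos 6 and 3, and the groups overlapped. The log2 fold change was 0.41 ± 0.64 (SE, adjusted p = 0.614), and it turned to -0.01 without embryo 2, -0.02 without adult 2 and -0.31 when corrected for length and GC content. Of 12 neuronal markers, *Elavl3*, an RNA-binding protein of neurons, had 3.51, 13.7, 4.51, 5.08, 1.96, 5.69 and 3.46 CPM in embryos 1 to 7, and the axonal growth gene *Gap43* had 7.03, 37.9, 12.3, 7.05, 12.6, 22.6 and 11.8 CPM. These markers, singled out after their values were seen, were highest in embryo 2 and next in embryo 6, as *Tubb3* was, while *Rbfox3* (3.21 CPM in embryo 2, 3.18 to 12.5 CPM in the other embryos), *Nefm* (9.39 CPM, and 10.3 to 47.5 CPM) and *Nefl* (29.0 CPM, and 68.3 to 227 CPM) were not. Among the rest, *Elavl4*, *Ina* and *Gad1* were also highest in embryo 2 and next in embryo 6. *Gad2* was highest in embryo 2 and next in embryo 3, and *Snap25*, *Syt1* and *Slc17a6* were highest in embryo 1. The 12 markers summed to 137 CPM in embryo 2, between 163 and 288 CPM in the other embryos, and 687 and 690 CPM in adults, led by *Nefl* (147 CPM) in embryos and *Syt1* (245 CPM) in adults. Embryo 2 was thus the lowest embryo by the whole sum, but without *Nefl*, an alternative chosen after seeing the data, it was the highest, at 108 CPM against 54.2 to 94.9 CPM in the other embryos. Of these 12 markers, *Slc17a6*, *Gad1* and *Gad2* were at 0 in 1 or more embryos. The part of neurons in the level of *Tubb3* was not tested. Its share of β-tubulin was 2.62 ± 1.76% in embryos, with a median of 1.82% and the highest in embryo 2, and 8.73% and 5.68% in adults. Embryo 2 reached into the adult range at this length, and the groups did not overlap with the median length, with no division by length or when corrected for length and GC content. *Tubb6* (ENSMUSG00000001473), a β-tubulin of mostly non-neuronal cells, had a lowest, median and highest embryo level of 28.5, 39.7 and 69.2 CPM, and adult levels of 36.6 and 41.6 CPM. The groups overlapped, the log2 fold change was 0.17 ± 0.33 (SE, adjusted p = 0.685), and it was -0.05 with library size alone and -0.60 when corrected for length and GC content. Its share of β-tubulin was 1.76 ± 0.444% in embryos and 4.54% and 6.73% in adults, without overlap. The shares of a family add up to a fixed total, so a lower share of 1 gene raises those of others. The higher adult shares of *Tubb2a*, *Tubb3*, *Tubb4a*, *Tubb4b* and *Tubb6* stood beside lower shares of *Tubb5* and *Tubb2b*. By level, none of them passed as higher in adults with the settings used throughout.

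**Figure D4:**
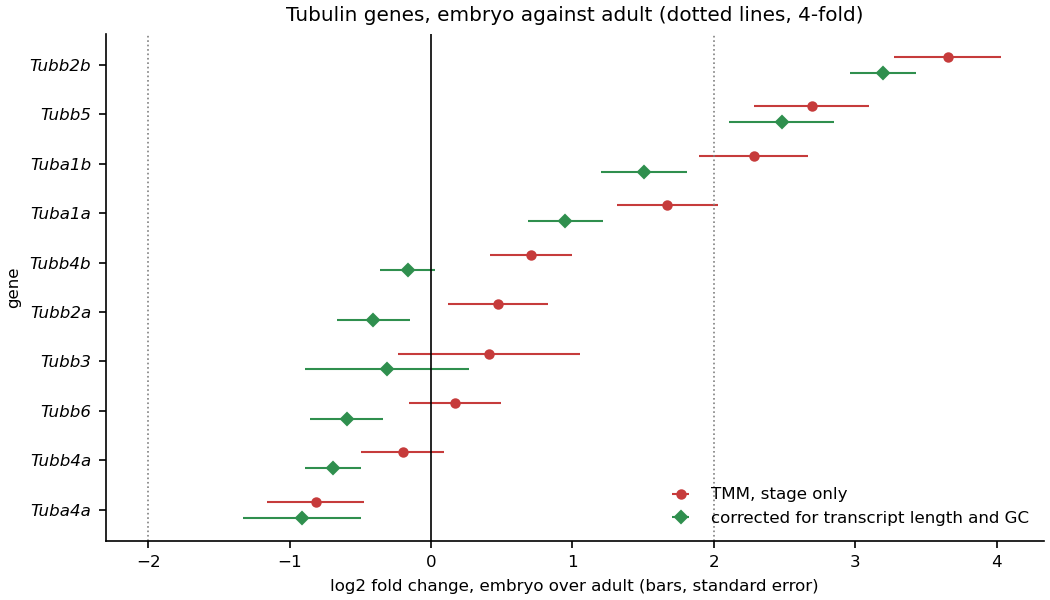
Log2 fold change of each tubulin gene, embryo over adult, with standard errors, from the TMM-scaled counts (circles) and corrected for transcript length and GC content (diamonds), with dotted lines at 4-fold. *Tubb2b* and *Tubb5* lie above 4-fold in both, *Tuba1b* only without the correction, and *Tubb4b*, *Tubb2a*, *Tubb3* and *Tubb6* change sign.

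In order of mean level per length, the embryo libraries ran from *Tubb5* (893 ± 227 RPKM) and *Tuba1a* (723 ± 169 RPKM) over *Tuba1b* (293 ± 90.4), *Tubb4b* (205 ± 42.0) and *Tubb2b* (178 ± 45.1) to *Tubb2a* (62.7 ± 22.1), *Tubb3* (39.8 ± 31.1), *Tubb4a* (25.8 ± 6.74), *Tubb6* (25.0 ± 8.20) and *Tuba4a* (13.9 ± 5.44). Only *Tubb2b* and *Tubb2a* were neighbours whose ranges did not overlap. At this length *Tubb5* exceeded *Tuba1a* in 6 of 7 embryos. Over unique positions *Tuba1a* exceeded *Tubb5* in every embryo, with mean shares of the summed tubulin level of 44.5% and 16.1%. *Tuba1b* (24.4%) then also lay above *Tubb5* in every embryo. With the union of exons the embryo means were 32.9% for *Tuba1a* and 32.4% for *Tubb5*. Corrected for length and GC content, *Tubb5* (38.0%) was above *Tuba1a* (28.5%) by embryo mean. *Tubb4b* and *Tubb2b* (4 of 7), *Tubb3* and *Tubb4a* (3 of 7) and *Tubb4a* and *Tubb6* (4 of 7) had no order that held across embryos. In the adults the order was *Tuba1a* (227 ± 23.2 RPKM), *Tubb5* (138 ± 35.6), *Tubb4b* (126 ± 13.6), *Tuba1b* (60.2 ± 2.73), *Tubb2a* (45.1 ± 9.04), *Tubb3* (30.0 ± 14.2), *Tubb4a* (29.6 ± 4.33), *Tuba4a* (24.5 ± 3.35), *Tubb6* (22.2 ± 2.01) and *Tubb2b* (14.2 ± 0.68). *Tubb5* and *Tubb4b*, *Tubb3* and *Tubb4a*, and *Tuba4a* and *Tubb6* each changed places between the 2 adults. *Tubb2b* thus stood at rank 5 in embryos and last in adults. At this length *Tuba1a* and *Tubb5* held ranks 1 and 2 by mean level at both stages. In adults, rank 2 of *Tubb5* depended on the length, and at this length was not held in adult 2. Over unique positions its mean share of the 10 genes was 8.49%, below *Tuba1b* (17.5%) and *Tubb4b* (12.8%). Corrected for length and GC content, it was 15.3%, below *Tubb4b* (19.8%).

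Of 6 further annotated α-tubulin and β-tubulin genes 3 were tested, and they differed in direction, with a median log2 fold change of 1.36 that was 0.34 when corrected for length and GC content and 0.68 to 2.61 with 1 library left out. *Tuba1c*, closely related to *Tuba1a* and *Tuba1b*, was the most abundant (116 ± 54.8 CPM in embryos, 14.5 and 14.8 CPM in adults, log2 fold change 2.99, adjusted p = 0.000387). *Tuba8* fell by 2.55 on the log2 scale in embryos against adults (adjusted p = 0.0130) with 0 to 1.45 CPM in embryos and 3.68 and 3.93 CPM in adults. *Tubb1*, the β-tubulin of platelets, had 0 to 6.45 CPM in embryos and 0.485 and 1.85 CPM in adults (adjusted p = 0.345). It is 1 of 5 platelet markers, which summed to 60.9 ± 30.2 CPM in embryos and 12.1 ± 7.89 CPM in adults, led by *Pf4* (27.1 CPM) and *Itga2b* (6.29 CPM). *Tuba3a* and *Tuba3b*, testis α-tubulins, had at most 2 pairs in any library and *Tubal3* had 0 in all 9, and none of the 3 was tested.

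The genes that make tubulin ready for assembly were mostly higher in embryos, with fewer passing when corrected for length and GC content. Of the 8 subunits of the CCT chaperonin, which folds tubulin and actin, 6 passed, all higher in embryos, with a median log2 fold change of 1.02 against -0.04 over all genes. For this and the next lists, the shares of all tested genes that passed were 24.0% as higher in embryos and 27.4% as higher in adults. *Cct5* (1.60), *Cct3* (1.40) and *Cct7* (1.26) had the largest differences, and *Cct5* was the most abundant in embryos (328 RPKM) and *Cct2* in adults (113 RPKM). Prefoldin, which hands unfolded tubulin to the chaperonin, had 5 of 6 subunits higher in embryos and a median of 1.87, with *Pfdn4* (2.56), *Pfdn5* (2.04) and *Pfdn1* (2.00) in front and *Pfdn5* the most abundant (612 and 149 RPKM). Among 7 tubulin cofactor genes, which join α-tubulin to β-tubulin, 4 passed as higher in embryos, including *Tbca* (2.41), *Tbcb* (1.99) and *Tbcc* (1.36), and 1 as higher in adults, *Tbcel* (-1.11), with a median of 1.18 and *Tbca* the most abundant (609 and 115 RPKM). When corrected, the medians were 0.82 for CCT, 0.50 for prefoldin and 0.25 for the cofactors. In embryos 7 of 8 CCT genes, 2 of 6 prefoldin genes (*Pfdn1* and *Pfdn4*) and 2 of 7 cofactors (*Tbca* and *Tbcb*) then passed, against 24.8% of all tested genes. *Tbcel* no longer passed in adults. Of the genes of tubulin mRNA autoregulation, *Ttc5*, which recognises nascent tubulin at the ribosome, was higher in embryos (log2 fold change 1.52, adjusted p = 0.00253, the more abundant at 57.9 and 20.2 RPKM) and its partner *Scaper* higher in adults (-2.43, adjusted p = 5.53e-05, and -1.08 when corrected). The median of the pair was -0.45, and 0.23 when corrected.

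Among genes for enzymes that modify tubulin, and their partners, some passed in each direction. In the tyrosination cycle, 3 of 4 genes passed, all higher in embryos and all above 4-fold, with a median of 2.93. In that direction 24.0% of all tested genes passed, and 11.3% did so above 4-fold. The 3 genes were the detyrosinating enzymes *Vash2* (4.64, adjusted p = 1.25e-06) and *Vash1* (2.18, adjusted p = 0.000822) and their binding protein *Svbp* (3.68, adjusted p = 4.08e-06). *Svbp* was the most abundant of them, at 101 RPKM in embryos and 7.86 RPKM in adults. *Ttl*, the ligase that restores tyrosine, had a log2 fold change of 0.17 (adjusted p = 0.724). Among 15 tested genes of glutamylation and glycylation, 5 passed in each direction and the median was -0.84. The shares of all tested genes were 24.0% as higher in embryos and 27.4% as higher in adults. *Tpgs2* (1.84), *Tpgs1* (1.66) and *Ttll12* (1.54) led those higher in embryos, and *Ttll7* (-3.33), a polyglutamylase of β-tubulin, *Ttll3* (-2.46) and *Ttll10* (-1.37) those higher in adults, with *Tpgs1* the most abundant in embryos (59.9 RPKM) and *Lrrc49* in adults (21.5 RPKM). Of 6 deglutamylases 3 passed, all higher in adults (27.4% of all tested genes did), with a median of -1.15. They were *Agtpbp1* (-3.53), *Agbl4* (-1.66) and *Agbl3* (-1.19), and *Agbl5* was the most abundant in embryos (8.83 RPKM) and *Agtpbp1* in adults (11.6 RPKM). When corrected for length and GC content the medians of these last lists were -0.20 and -0.39, 4 genes of glutamylation and glycylation passed in each direction, with *Ttll4* turning from -0.87 to 0.87 (adjusted p = 0.0280), and of the deglutamylases only *Agtpbp1* passed. The corrected shares of all tested genes were 24.8% as higher in embryos and 23.3% as higher in adults. Of the 3 acetylation genes, the α-tubulin acetyltransferase *Atat1* passed (1.25), with a median of 0.61 and *Sirt2* the most abundant (40.9 and 26.8 RPKM).

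Structural microtubule-associated proteins, transport motors and plus-end tracking proteins had 43 tested genes. Of these, 30 passed as higher in adults (27.4% of all tested genes did), and 19 when corrected for length and GC content (23.3% of all). The sum of 12 neuronal markers was also higher in adults (688 against 221 CPM, with 7 of 12 passing), led there by *Syt1* (245 CPM) and *Snap25* (203 CPM). The list was mixed. *Nefl* (147 CPM in embryos, 53.4 CPM in adults), *Gap43* (15.9 and 11.7 CPM) and *Gad1* (1.22 and 0.618 CPM) had the higher mean in embryos, without passing. *Elavl3* and *Nefm* did not pass either. The part of neurons in the lists of microtubule genes was not tested. Of 13 structural microtubule-associated proteins, which stabilise or bundle microtubules, 10 passed, all higher in adults, 8 of them above 4-fold, with a median of -2.50. *Dclk1* (-3.97), *Map7d2* (-3.78) and *Map2* (-2.84) had the largest differences, and *Map7d1* was the most abundant in embryos (19.7 RPKM) and *Map2* in adults (46.3 RPKM). Among 20 transport motor genes, 12 passed as higher in adults, led by the kinesins *Kif5c* (-4.02) and *Kif1b* (-2.62) and the dynein intermediate chain *Dync1i1* (-3.95), and 2 as higher in embryos, *Dctn2* (1.47) and *Kif1c* (0.97), with a median of -1.54 and *Dctn2* the most abundant (187 and 67.6 RPKM). Of 10 plus-end tracking proteins, which ride on growing ends, 8 passed as higher in adults, led by *Clasp2* (-2.81), *Ckap5* (-2.28) and *Clip1* (-2.13), and *Mapre1* (0.96) as higher in embryos, with a median of -1.22 and *Mapre1* (25.5 RPKM) and *Mapre3* (34.0 RPKM) the most abundant in embryos and adults. The medians were -1.22 for the structural proteins, -0.39 for the motors and -0.70 for the plus-end proteins when corrected. In adults 7, 7 and 5 genes of these lists then passed, and in embryos 1, 4 and 2. *Ckap5* no longer passed, and *Dcx* turned from -1.37 to 0.71 (adjusted p = 0.174).

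**Figure D5:**
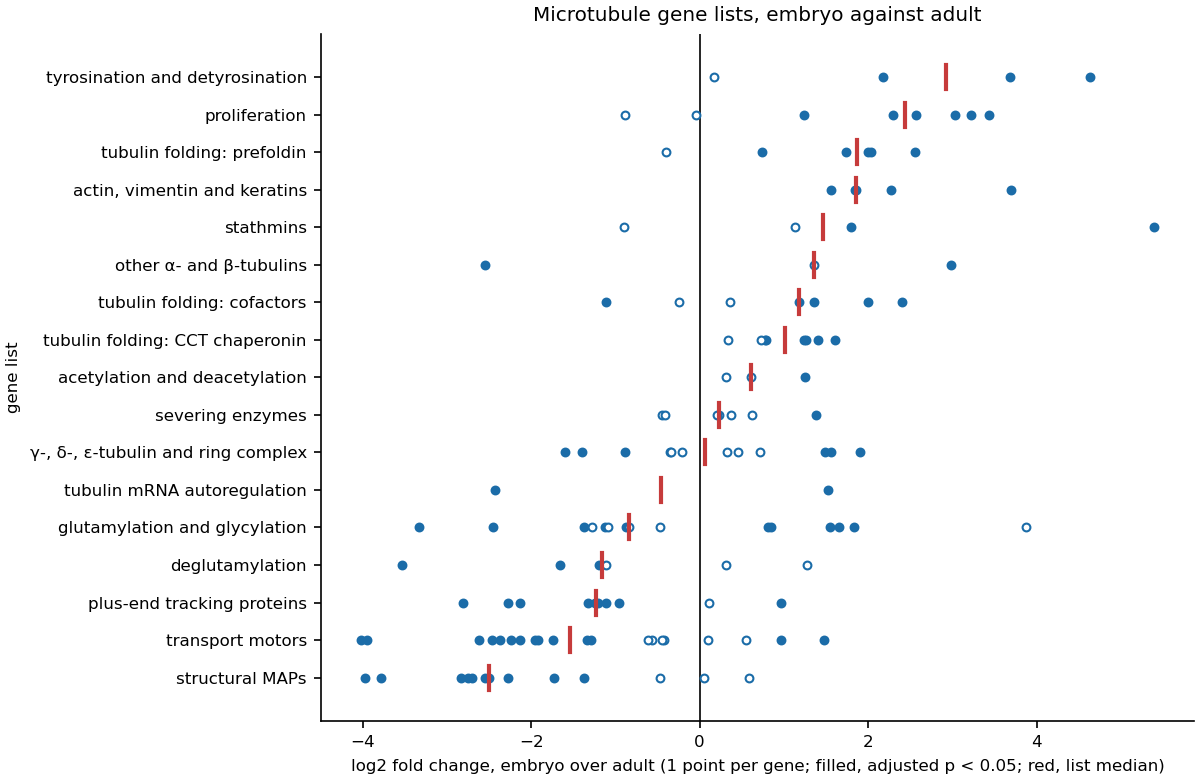
Log2 fold change, embryo over adult, of the tested genes of 17 microtubule and reference lists, with 1 point per gene (filled, adjusted p below 0.05) and a red bar at each list's median, without the length and GC correction. The medians run from 2.93 for tyrosination and detyrosination to -2.50 for structural microtubule-associated proteins.

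Of 23 genes whose products hold free dimers, sever microtubules or start new ones, 6 passed as higher in embryos and 3 as higher in adults, against 24.0% and 27.4% of all tested genes. When corrected for length and GC content these were 12 and 3, against 24.8% and 23.3%. Of the 4 stathmins, which hold free tubulin dimers, *Stmn4* (5.40) and *Stmn1* (1.79) passed as higher in embryos, with a median of 1.46 (0.79 when corrected for length and GC content, where *Stmn3* passed as higher in adults), and *Stmn1* was the most abundant in embryos (248 RPKM) and *Stmn3* in adults (102 RPKM). *Stmn4* had 1.60 to 31.3 CPM in embryos and 0.0969 and 0.365 CPM in adults. Among 7 severing enzymes, *Fignl1* (1.39) passed, with a median of 0.23 (0.81 when corrected, with 5 passing as higher in embryos) and *Katna1* the most abundant (15.7 and 13.4 RPKM). Of 12 genes of γ-tubulin, δ-tubulin, ε-tubulin and the γ-tubulin ring complex, which nucleates microtubules, *Mzt2* (1.91), *Tube1* (1.56) and *Tubd1* (1.49) passed as higher in embryos and *Tubgcp5* (-1.60), *Tubg2* (-1.39) and *Mzt1* (-0.89) as higher in adults, with a median of 0.06 (0.57 when corrected, with 5 passing in embryos and 2 in adults, *Mzt1* no longer among them) and *Mzt2* (59.2 RPKM) and *Mzt1* (30.6 RPKM) the most abundant in embryos and adults. The main nucleating subunit *Tubg1* had a log2 fold change of 0.46 (adjusted p = 0.171), and -0.27 when corrected (adjusted p = 0.179).

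Reference lists give the setting of these differences, beside the 24.0% of all tested genes that passed as higher in embryos. Of 8 proliferation genes, 6 passed as higher in embryos, including *Birc5* (3.43), *Ccnb1* (3.22) and *Cdk1* (3.03), with a median of 2.43 and *Pcna* the most abundant (119 and 50.5 RPKM), while *Mki67* (-0.88, adjusted p = 0.148) and *Top2a* (-0.04, adjusted p = 0.922) did not pass. When corrected for length and GC content, *Top2a* passed as higher in embryos (1.29, adjusted p = 0.00300) and *Mki67* turned to 0.95 (adjusted p = 0.205). All 5 actin and intermediate filament genes passed as higher in embryos, led by *Vim* (3.70), *Krt18* (2.27) and *Krt8* (1.85), with a median of 1.85 and *Actb* the most abundant (968 and 269 RPKM). The higher level of *Tubb5*, *Tuba1b* and *Tubb2b* in embryos thus stood beside higher levels of these actin and intermediate filament genes and of 6 of 8 proliferation genes. The part of proliferation in it was not tested. Most genes for structural, motor and plus-end proteins passed as higher in adults, but no longer most of them when corrected for length and GC content.

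Other marker lists differed between the stages as well. Cartilage markers summed to 269 ± 84.4 CPM in embryos and 11.9 ± 4.37 CPM in adults, led by *Col2a1* (259 and 10.7 CPM), with *Matn1* at 0 in both adults. Endothelial markers summed to 301 ± 135 and 143 ± 44.8 CPM, led by *Emcn* (74.1 CPM) and *Plvap* (46.7 CPM), and macrophage markers to 165 and 126 CPM, led by *C1qb* (50.5 CPM) and *Csf1r* (32.0 CPM). Markers of ciliated cells, which use *Tubb4b* in their axonemes, summed to 37.2 ± 5.40 CPM in embryos and 60.5 and 61.4 CPM in adults, led by *Tekt1* (24.3 and 20.6 CPM), with *Dnah5* at 0 in 4 embryos. Markers of the posterior lobe and ventral diencephalon summed to 426 ± 78.1 and 184 ± 2.84 CPM, led by *Six6* (268 and 161 CPM), which the pouch also expresses. Of these 8 markers, 4 passed as higher in embryos, against 24.0% of all tested genes. They were *Rax* (50.8 and 1.79 CPM), *Tbx3* (41.2 and 5.82 CPM), *Nkx2-1* (23.1 and 1.40 CPM) and *Lhx2* (18.6 and 2.22 CPM). *Avp* and *Oxt* passed as higher in adults (27.4% of all tested genes did). *Avp* was at 0 in all 7 embryos, which allows up to 0.0962 to 0.220 CPM by 3 counts a library. The part of these cells in the tubulin shares was not tested.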

How the data were processed

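RNA of 7 embryos and 2 adults was made with TRIzol and sequenced from 50 ng with a directional poly(A) kit as 75-base pairs. The authors trimmed reads (Trimmomatic 0.39), aligned them to mm10 (STAR 2.7.5b) and deposited raw counts of read pairs per gene (Ensembl 96, GRCm38), which hold no pair aligned in several places. The strand-specific counts were used. Genes whose counts averaged 5 or more over the libraries were tested across stages with edgeR 4.0.16 (TMM, quasi-likelihood F-test, two-sided, Benjamini-Hochberg over 19371 genes, stage only), in R 4.3.3, and the method was tested on simulated data. The simulation changed few genes, equally in both directions, with a smaller spread between libraries than these data have. It therefore cannot show how scaling and error control hold where many genes differ. The counts of 16738863 to 36421545 pairs a library set the counting error, and the spread between animals, with 2 adults, limits the precision of the comparison. Length-normalised shares used the longest protein-coding transcript (GENCODE M21). The median length had been planned and was replaced after seeing the data, since annotated fragments enter the median of *Tuba4a*, *Tubb3* and *Tubb5*. Unique positions are 75-base windows found in no transcript of another gene, and the genome was not searched. They served as a length: a gene's whole count was divided by their number, and counts were not limited to them. Single windows take no account of the second read of a pair. Tables were made in Python 3.11.15 with pandas 2.3.3. Named genes were all 10 members, up to 3 genes in each direction per list by log2 fold change among those with an adjusted p below 0.05, the most abundant gene of each list, and for *Tubb2b* and *Tuba4a*, the members with the highest and lowest log2 fold change, the 3 genes with the highest Pearson r of log2 CPM (pseudocount 0.5) over 7 embryos among genes with a mean of at least 10 CPM. *Ttl*, *Tubg1*, *Tubb1*, *Mki67*, *Top2a*, the neuronal genes *Elavl3*, *Elavl4*, *Gap43*, *Ina*, *Nefm*, *Rbfox3* and *Snap25*, *Ttll4*, *Dcx*, *Gm6682*, *Gm49450*, the pouch genes *Hesx1* and *Lhx3*, the posterior lobe and ventral diencephalon genes *Rax*, *Tbx3*, *Nkx2-1*, *Lhx2* and *Oxt*, and genes at or near 0 in some libraries (*Slc17a6*, *Gad1*, *Gad2*, *Matn1*, *Dnah5*, *Avp*, *Tuba3a*, *Tuba3b* and *Tubal3*) were named beyond that rule, after their values were seen. The summed level of the Rathke's pouch markers is not reported here. The members and lists were chosen with earlier results of these data known. Alternatives were DESeq2 1.42.0, other scalings and filters, unstranded counts, a replicate block, left-out libraries, other lengths, and offsets for length and GC content.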

Additional observations from a re-analysis of the deposited data

Results flagged for a closer look

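Among 34 groups of 7 embryo values that were checked for a value far from the rest (level of each tubulin gene, its share, and each marker sum), 2 held one, and chance flags about 1 in 20 groups. The share of *Tuba1b* in α-tubulin was 35.2% in embryo 1, against 24.2% to 28.9% in the other 6 embryos. The summed level of endothelial markers was 577 CPM in embryo 2, against 165 to 328 CPM in the other 6, and embryo 2 also had the highest *Tubb3*, *Tubb2a* and *Tubb6*. The part of the cells in each library in these values was not tested.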

How the results depend on the processing

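Of the 10 genes, 3 called higher in embryos ranged from 2 to 4 over the alternatives, and 0 were called higher in adults under each of them. At the 4-fold threshold, 2182 genes were called higher in embryos and 2819 in adults, leaving out 1 library gave 1482 to 2362 and 2201 to 2958, and the replicate block, which pairs different animals, 1796 and 2440. With no fold threshold the counts were 4650 and 5298. The log2 fold changes of *Tuba1a*, *Tuba1b*, *Tubb2b* and *Tubb5* kept their direction and passed under each alternative. Corrected for length and GC content, *Tubb2a* was -0.41, *Tubb3* -0.31, *Tubb4b* -0.17, *Tubb6* -0.60 and *Tubb4a* -0.69 (now passing). *Tubb4a* was 0.058 with the replicate block, and *Tubb6* -0.054 with library size alone. *Tuba4a* passed with library size alone (-1.10), with no filter (-0.82) and without embryos 1 and 4 (-1.13), and *Tubb4b* by DESeq2 (0.68) and unstranded (0.73). Leaving out 1 library gave -0.96 to -0.69 for *Tuba4a*, -0.020 to 0.97 for *Tubb3* and 0.59 to 0.80 for *Tubb4b*. The share of *Tuba1a* in embryos was 64.4% over unique windows, 66.5% with all tubulin genes in the sum and 74.3% unstranded; in adults it was 61.4% with the median length, 75.2% with the union of exons, 70.1% with no length, 71.7% over unique windows, 70.7% with all tubulin genes, 76.3% unstranded and 73.9% corrected. Leaving out 1 library gave 69.6% to 71.5% and 72.4% to 73.2%. *Tuba4a* made up 4.41% in embryos with the median length, 2.14% with no length and 0.361% over unique windows, and in adults 22.2%, 11.9% and 2.25%, and 6.21% with the union of exons and 5.92% corrected; *Tubb5* made up 71.2%, 70.1% and 52.3% in embryos and 43.2%, 43.7% and 25.9% in adults, and 27.7% corrected. For list medians, the length and GC correction gave 0.57 for the γ-tubulin list, 0.82 for CCT, 0.50 for prefoldin, 0.25 for cofactors, 0.23 for autoregulation, 2.07 for tyrosination, -0.20 for glutamylation, -0.39 for deglutamylation, 0.79 for stathmins, -1.22 for structural proteins, -0.70 for plus-end proteins, 0.81 for severing enzymes, -0.39 for motors and 1.26 for actin and intermediate filaments. Library size alone gave -0.14 for the γ-tubulin list, 0.81 for CCT, -0.69 for autoregulation, -1.36 for deglutamylation and 0.0098 for severing enzymes. The replicate block gave -0.39 for the other tubulins, -0.14 for the γ-tubulin list, -0.66 for autoregulation, -1.55 for deglutamylation, -1.89 for structural proteins and -1.93 for motors, and leaving out embryos 1 and 4 gave -0.51 for glutamylation. The causes were not tested. The search of the genome for unique windows was not run. With 2 adults, leaving out 1 leaves a lone adult assumed to vary like the embryos.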
